A study of Mus musculus with 10 samples.

Results

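The enzymes of the urea cycle and of periportal amino acid breakdown were followed in mouse liver after gene transfer of vascular endothelial growth factor A (VEGF-A). The group held 10 genes, chosen by name from the 24011 named rows of the expression table: Nags, Cps1, Otc, Ass1, Asl, Arg1, Slc25a15, Gls2, Hal and Sds. Each of the 10 was found and passed the filter on low values. C57BL/6 mice, all adult males, received adenovirus through the tail vein. In the AdVEGFA group (n = 5) the virus carried VEGF-A under the CMV promoter, which is active in many cell types, and in the AdCMV group (n = 5) it carried that promoter with no transgene, so that both groups received virus and no virus-free liver was compared. Livers were perfused and taken on day 6, and total RNA depleted of ribosomal RNA was sequenced from whole tissue.

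The urea cycle turns ammonia, which is toxic, into urea. Its first steps run in the mitochondria of hepatocytes and its later steps in the cytosol. Hepatocytes near the portal vein are rich in these enzymes and in enzymes that release ammonia from glutamine, histidine and serine, whereas a thin layer of hepatocytes around the central vein carries glutamine synthetase (Glul), which fixes the ammonia that escapes the cycle. Whole-liver RNA sums over these zones. In such samples, fewer cells of a type and less RNA per cell cannot be told apart.

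Sds rose 1.75-fold in the deposited values, and the other 9 enzymes did not pass the test, where 21.9% of all genes passed higher and 2.23% lower. After the libraries were scaled by the median ratio, none of the 10 passed, where 12.7% of all genes passed higher and 10.3% lower. The 95% intervals of the 10 on that scale reached from -0.99 for Otc to 1.01 for Hal in log2 units, so that changes within them are not shown to be absent. Glul and the other pericentral genes of ammonia, glutamate and ornithine handling fell under every setting tried.

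Expression was given as RPKM, reads per kilobase of transcript and per 1000000 mapped reads. Mapped reads per library, recovered from the steps between the deposited values, ran from 5.76e+06 to 1.35e+07 in AdCMV and from 5.6e+06 to 8.13e+06 in AdVEGFA. The major urinary proteins (Mup) are abundant secreted products of hepatocytes. They took 36.6% ± 12.2 (SD, n = 5) of the reads summed over transcripts in AdCMV and 16.3% ± 7.92 in AdVEGFA. That sum exceeded the mapped reads in every library, with means of 9.65e+06 against 8.76e+06 in AdCMV and 6.98e+06 against 6.7e+06 in AdVEGFA. The Mup shares of mapped reads are therefore not known, and shares of reads below are of the same sum. Most other genes shifted upward in AdVEGFA: across the 13933 genes tested, log2 fold changes had a median of 0.38. Scaling by the median ratio brought that median to -0.0044, and fold changes on this scale are given with the deposited ones. Fold changes are AdVEGFA over AdCMV on the log2(RPKM + 0.1) scale, a gene passed the test at an adjusted p under 0.05 (limma, Benjamini-Hochberg adjustment over all genes tested), and it was called where the log2 fold change was also over 1 or under -1. The 12 hepatocyte markers were above 0 in every mouse, and their summed level ran from 22389 to 31510 RPKM in AdCMV and from 42723 to 50165 RPKM in AdVEGFA. Of these 12, 6 rose in the deposited values, with Ahsg, Apoa1, Alb and Trf by 1.00 to 1.67 on the log2 scale, and Ahsg alone after median-ratio scaling. Of the 12 endothelial markers 11 rose, with sums of 27.2 to 56.8 RPKM in AdCMV against 280.3 to 306.1 RPKM in AdVEGFA, and 8 of 8 stellate cell markers rose, with sums of 70.9 to 112.5 against 133.6 to 262.4 RPKM. Kupffer cell markers rose in 5 of 10 cases (139.2 to 300.2 against 287.9 to 446.4 RPKM) and cholangiocyte markers in 2 of 4 (24.2 to 53.6 against 280.5 to 726.3 RPKM), where Spp1, which other liver cells can also express, made up most of the sum (35.2 ± 11.3 against 530.9 ± 173.8 RPKM). T and NK cell markers fell in 6 of 7 cases (10.3 to 37.0 against 7.2 to 14.7 RPKM), 1 of 3 neutrophil markers rose (14.9 to 96.1 against 15.4 to 191.2 RPKM), and 0 of 3 erythroid markers passed, also at an unadjusted p under 0.05 (limma) or with voom (737.5 to 1634 against 504.1 to 1814 RPKM). After median-ratio scaling 11 of 12 endothelial, 6 of 8 stellate, 2 of 10 Kupffer, 1 of 4 cholangiocyte and 1 of 3 neutrophil markers rose, 7 of 7 T and NK cell markers fell, and 0 of 3 erythroid markers passed. No marker was at 0 in all mice, and 4 were at 0 in at least 1, among them Klrb1c, Krt19 and Mpo. The part of these other cells in the values below was not tested.

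The sequences upstream of 3 genes are shown because they stand at the ends of the results: Otc, the member with the lowest fold change, Hal, the member with the highest fold change among those with a window, and Glul, the pericentral counterpart that fell. RefSeq gave windows of 250 bases before to 50 bases after the transcription start (GRCm38.p6) for 5 of the 10 members. Capitals mark TTNCNNAA, a loose form of the site bound by C/EBP factors, on either strand.
Otc, chrX:10252055-10252354, + strand: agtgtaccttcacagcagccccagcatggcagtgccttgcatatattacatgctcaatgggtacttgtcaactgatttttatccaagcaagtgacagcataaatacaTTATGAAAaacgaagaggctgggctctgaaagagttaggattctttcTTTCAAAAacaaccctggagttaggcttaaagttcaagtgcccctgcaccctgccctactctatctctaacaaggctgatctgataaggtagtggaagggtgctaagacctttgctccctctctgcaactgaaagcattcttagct
Hal, chr10:93488518-93488817, + strand: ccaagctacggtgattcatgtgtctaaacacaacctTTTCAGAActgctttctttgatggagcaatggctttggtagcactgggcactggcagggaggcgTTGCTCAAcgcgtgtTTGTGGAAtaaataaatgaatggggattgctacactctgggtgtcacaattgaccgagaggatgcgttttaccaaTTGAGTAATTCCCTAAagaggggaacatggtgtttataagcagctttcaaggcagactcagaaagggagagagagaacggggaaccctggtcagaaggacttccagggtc
Glul, chr1:153899679-153899978, + strand: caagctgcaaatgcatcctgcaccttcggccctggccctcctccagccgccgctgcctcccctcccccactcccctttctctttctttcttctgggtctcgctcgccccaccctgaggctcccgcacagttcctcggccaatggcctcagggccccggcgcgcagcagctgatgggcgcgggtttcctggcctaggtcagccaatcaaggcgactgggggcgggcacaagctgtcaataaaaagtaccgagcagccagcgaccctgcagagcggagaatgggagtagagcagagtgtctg
The Hal window held 5 such matches, the Otc window 2 and the Glul window none, while 40.7% of the 32851 RefSeq windows of this length held at least 1. Of the windows not shown, those of Nags and Oat held a match and those of Ass1 and Slc25a15 held none. Oat fell as Glul did, and a relation of matches to fold changes was not tested. Matches to TATAAA, the core of the TATA box, were in 13.6% of all windows and on the reverse strand of the Hal window at 28 bases before the start. C/EBP factors are known regulators of urea cycle genes in liver. Cebpa was at 53.1 ± 5.85 RPKM in AdVEGFA and at 48.4 ± 12.2 RPKM in AdCMV (log2 fold change 0.17, SE 0.21, adjusted p = 0.554, limma), and -0.23 after median-ratio scaling (adjusted p = 0.313, limma). Cebpb had a log2 fold change of -0.15 (adjusted p = 0.631, limma), and of -0.55 after median-ratio scaling (adjusted p = 0.0499, limma).

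The levels of the 10 enzymes spanned more than an order of magnitude. Mean RPKM over the 10 mice, which is a length-corrected level, was 493 for Arg1, 379 for Ass1, 124 for Cps1, 122 for Otc, 72.7 for Asl, 43.9 for Slc25a15, 31.7 for Gls2, 28.1 for Hal, 23.5 for Sds and 17.1 for Nags. Ass1 was above Cps1 in 10 of 10 mice and Slc25a15 above Gls2 in 10 of 10. The order of the other 7 neighbouring pairs changed between mice. Cps1 was above Otc in 4 of 10 mice and Gls2 above Hal in 6, Arg1 above Ass1 and Hal above Sds in 7 each, Sds above Nags in 8, and Otc above Asl and Asl above Slc25a15 in 9 each. Together the members took 0.219% ± 0.0586 of reads in AdCMV and 0.303% ± 0.0530 in AdVEGFA.

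**Figure D1:**
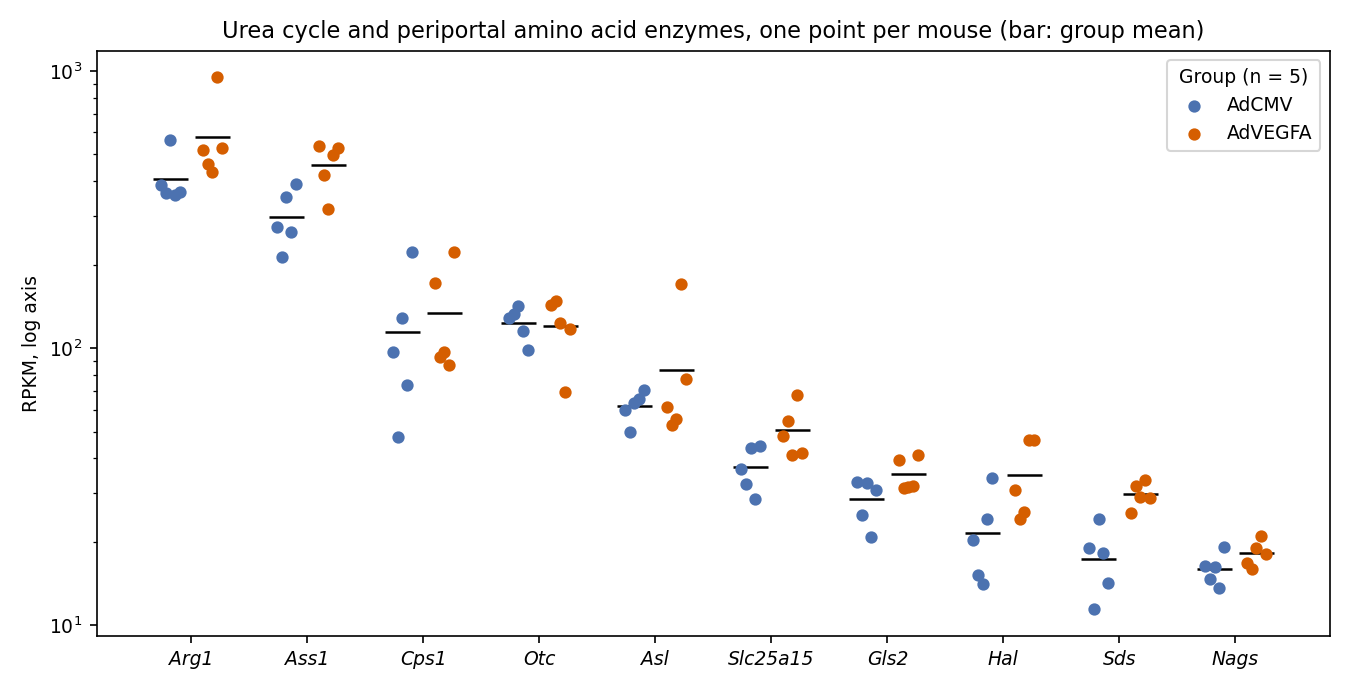
Level of each enzyme in RPKM (log axis) in each of the 5 AdCMV mice (blue) and 5 AdVEGFA mice (orange), with the group mean as a bar. The points of the 2 groups overlap for 9 of the 10 genes, and all 5 AdVEGFA mice lie above the AdCMV mice for Sds alone.

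Of the 10 enzymes, 1 passed the test in the higher direction (Sds) and 0 in the lower, where 21.9% and 2.23% of all genes tested passed. At an unadjusted p under 0.05, 4 members were higher and 0 lower, against 34.9% and 3.69% of all genes. The voom test on recovered reads passed 3 members higher and 0 lower, against 25.1% and 2.35% of all genes. Without AdCMV mouse 5, 3 members passed higher, and 2 did so without AdCMV mouse 3 or AdVEGFA mouse 3. No member was called on either side, where the background was 13% called higher and 1.54% called lower. The groups did not overlap for 1 member, with every AdVEGFA mouse above every AdCMV mouse, against 14.3% of all genes tested. The members had a median log2 fold change of 0.38, which is 0.0023 below the general median. After median-ratio scaling 0 of 10 passed in either direction, against 12.7% of all genes passing higher and 10.3% lower (limma). None did so at an unadjusted p under 0.05 either, against 18.3% of all genes higher and 17.3% lower. On this scale 0 were called, against 7.77% of all genes called higher and 3.14% lower, and 0 were without overlap, against 10.6% of all genes with every AdVEGFA mouse above. The members' median was then -0.02, with 5 values above and 5 below 0.

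In the mitochondrial part of the cycle, Nags makes N-acetylglutamate, the cofactor that Cps1 needs. Its gene lies at chr11:102006827-102010842 on the + strand (mm9, as all gene positions here). Nags was at 16.4, 14.6, 16.3, 13.6 and 19.1 RPKM in AdCMV mice 1 to 5 and at 16.7, 15.98, 19.0, 21.0 and 18.1 RPKM in AdVEGFA mice 1 to 5. The groups overlapped, and the AdCMV mouse 5 was above all but AdVEGFA mouse 4. The log2 fold change was 0.18 (SE 0.18, 95% interval -0.19 to 0.56, adjusted p = 0.455, limma) in the deposited values and -0.22 (SE 0.15, adjusted p = 0.319) after median-ratio scaling. Nags was the least abundant of the 10, with 198 to 416 reads per library, and its spread within groups (SD 0.23 on the log2 scale) was near the median of 0.24 among 500 genes of like level.

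Cps1 encodes carbamoyl-phosphate synthase, which joins ammonia and bicarbonate in the first committed step (chr1:67169601-67277841, + strand). Its levels were 97.1, 48.0, 128.9, 73.5 and 222.8 RPKM in AdCMV mice 1 to 5 and 172.4, 93.1, 96.8, 87.0 and 221.8 RPKM in AdVEGFA mice 1 to 5. The groups overlapped, mouse 5 was highest in each at nearly the same level, and the lowest level was that of AdCMV mouse 2. The fold change was 1.25 (95% interval 0.741 to 2.11, adjusted p = 0.518, limma) and 0.946 (0.543 to 1.65, adjusted p = 0.907) after median-ratio scaling. Cps1 varied most of the 10: its highest AdCMV mouse was 4.65 times its lowest, and its within-group SD of 0.70 on the log2 scale exceeded that of 91.6% of 500 genes of like level. With 2990 to 8244 reads per library, counting error was small beside this spread.

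Otc encodes ornithine transcarbamylase, which makes citrulline (chrX:9829485-9898150, + strand). Otc was at 128.2, 132.9, 141.5, 115.1 and 98.0 RPKM in AdCMV mice and at 143.3, 147.8, 123.1, 69.5 and 117.3 RPKM in AdVEGFA mice. The lowest level belonged to AdVEGFA mouse 4, and the other 4 AdVEGFA mice lay within or just above the AdCMV range. Otc was the only member whose deposited fold change was below 0, at -0.07 on the log2 scale (SE 0.22, adjusted p = 0.827, limma), and its value after median-ratio scaling was -0.47 (SE 0.24, 95% interval -0.99 to 0.04, adjusted p = 0.175). Without AdVEGFA mouse 4 these values were 0.11 and -0.28 (adjusted p = 0.33 for the latter).

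Slc25a15 encodes the carrier that exchanges ornithine and citrulline across the inner mitochondrial membrane (chr8:23486022-23509093, - strand). It stood at 36.7, 32.4, 43.7, 28.5 and 44.4 RPKM in AdCMV and at 48.0, 54.4, 41.1, 67.8 and 41.8 RPKM in AdVEGFA. AdVEGFA mice 1, 2 and 4 were above every AdCMV mouse and the other 2 were within the AdCMV range. The difference was 0.44 on the log2 scale (SE 0.20, adjusted p = 0.119, limma) and 0.04 (SE 0.15, adjusted p = 0.885) after median-ratio scaling. Its paralog Slc25a2 had 0 to 3 reads per library and was not tested.

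In the cytosol, Ass1 encodes argininosuccinate synthase, which joins citrulline and aspartate (chr2:31325790-31376190, + strand). Ass1 was at 273.8, 213.5, 351.7, 262.1 and 391.4 RPKM in AdCMV mice and at 534.6, 421.6, 316.6, 496.7 and 527.9 RPKM in AdVEGFA mice. All AdVEGFA mice but mouse 3 were above every AdCMV mouse. The fold change was 1.55 (95% interval 1.11 to 2.16, adjusted p = 0.0527, limma) in the deposited values and 1.17 (0.847 to 1.62, adjusted p = 0.488) after median-ratio scaling. In the deposited values Ass1 passed without AdCMV mouse 3 (adjusted p = 0.0285, limma), AdCMV mouse 5 (0.0332) or AdVEGFA mouse 3 (0.0378). Of the 36-base stretches of the Ass1 transcripts, 59.9% also occur in the pseudogene Gm5424, which was at 61.9 RPKM on average, so that the split of reads between both, and with it the level of Ass1, is uncertain. Of the other members only Hal shared such stretches with another gene, at 1.01%.

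Asl encodes argininosuccinate lyase, which releases arginine and fumarate (chr5:130487373-130500201, - strand). Its levels were 59.7, 49.96, 63.5, 65.5 and 70.5 RPKM in AdCMV and 61.4, 52.6, 55.6, 170.2 and 77.6 RPKM in AdVEGFA. AdVEGFA mouse 4 stood apart at more than 2 times the next mouse, and the other 9 mice mixed. The log2 fold change of 0.29 (SE 0.27, adjusted p = 0.447, limma) became -0.0073 without that mouse, and was -0.11 (SE 0.30, adjusted p = 0.826) after median-ratio scaling with all mice.

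Arg1 encodes liver arginase, which splits arginine into urea and ornithine (chr10:24635013-24647276, - strand). Arg1 was at 388.9, 362.3, 565.6, 357.6 and 367.1 RPKM in AdCMV and at 519.9, 460.2, 431.3, 948.8 and 527.6 RPKM in AdVEGFA. The AdCMV mice lay close together except for mouse 3, which was above all AdVEGFA mice but mouse 4. The difference was 0.46 on the log2 scale (SE 0.24, 95% interval -0.05 to 0.97, adjusted p = 0.168, limma) and 0.06 (SE 0.23, adjusted p = 0.888) after median-ratio scaling. Without AdVEGFA mouse 4 these values were 0.27 and -0.12. Arg2, the arginase of other tissues, was at 4.23 ± 2.19 RPKM in AdVEGFA and at 3.53 ± 1.86 RPKM in AdCMV (log2 fold change 0.26, SE 0.37, adjusted p = 0.617, limma), and -0.13 after median-ratio scaling.

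Among the enzymes that feed nitrogen into the cycle, Gls2 encodes liver glutaminase, which frees ammonia from glutamine (chr10:127631691-127647060, + strand). Gls2 was at 32.9, 25.1, 32.6, 20.8 and 30.9 RPKM in AdCMV and at 39.5, 31.1, 31.6, 31.8 and 41.0 RPKM in AdVEGFA. AdVEGFA mice 1 and 5 were above the AdCMV range and the other 3 fell inside it. The log2 fold change was 0.31 (SE 0.19, adjusted p = 0.24, limma) and -0.09 (SE 0.16, adjusted p = 0.737) after median-ratio scaling. The Gls2 locus overlaps Spryd4 on the other strand, at 19.3 RPKM on average, and whether reads were counted by strand is not given in the sources used here.

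Hal encodes histidine ammonia-lyase, which takes ammonia off histidine (chr10:92951513-92979488, + strand). It was at 20.3, 15.2, 14.1, 24.1 and 34.0 RPKM in AdCMV and at 30.8, 24.1, 25.5, 46.8 and 46.5 RPKM in AdVEGFA. AdVEGFA mice 4 and 5 were above all AdCMV mice, and AdCMV mouse 5 was above the other 3. The fold change was 1.63 (95% interval 1.11 to 2.41, adjusted p = 0.0623, limma) in the deposited values and 1.23 (0.756 to 2.02, adjusted p = 0.547) after median-ratio scaling. Without AdCMV mouse 5 the deposited values passed (adjusted p = 0.0203, limma). Its within-group SD of 0.62 exceeded that of 94.8% of 500 genes of like level.

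Sds encodes serine dehydratase, which turns serine into pyruvate and ammonia (chr5:120926556-120933914, + strand). Sds was at 19.0, 11.4, 24.2, 18.2 and 14.1 RPKM in AdCMV mice 1 to 5 and at 25.5, 31.9, 29.0, 33.3 and 28.8 RPKM in AdVEGFA mice 1 to 5. Every AdVEGFA mouse was above every AdCMV mouse, with mouse 1 of AdVEGFA and mouse 3 of AdCMV closest. Sds rose by 0.81 on the log2 scale (SE 0.21, 1.75-fold, 95% interval 1.29 to 2.38, adjusted p = 0.0104, limma). After median-ratio scaling its difference was 0.41 (SE 0.19, 95% interval -0.0077 to 0.82, adjusted p = 0.148, limma) and the groups overlapped. It rested on 94 to 313 reads per library, the fewest of the 10, and its locus overlaps Plbd2 on the other strand (11.7 RPKM on average). The related Sdsl was at 19.2 ± 18.5 RPKM in AdVEGFA and 6.86 ± 1.79 RPKM in AdCMV, a difference of 1.10 on the log2 scale that did not pass (SE 0.42, adjusted p = 0.0658, limma) and was 0.70 after median-ratio scaling (adjusted p = 0.329, limma).

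**Figure D2:**
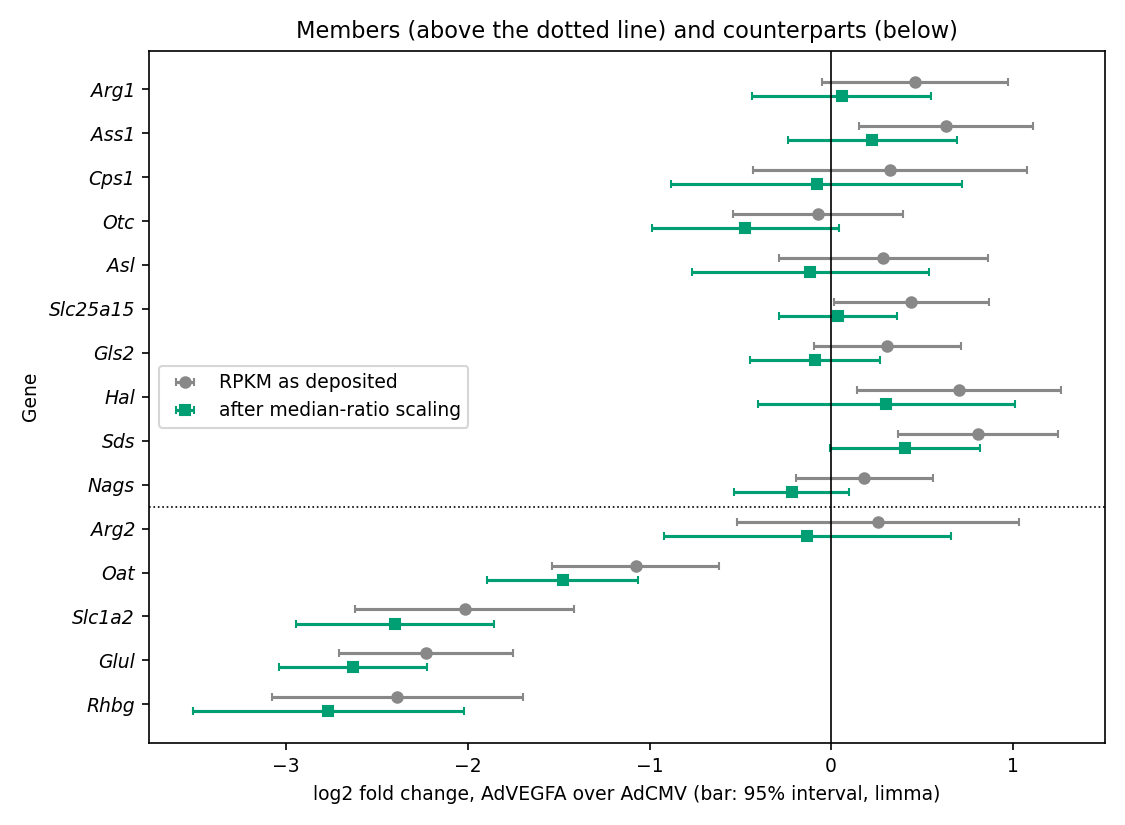
Log2 fold change of AdVEGFA over AdCMV with its 95% interval (limma) for the 10 enzymes, above the dotted line, and for 5 counterparts, below it, from RPKM as deposited (grey circles) and after median-ratio scaling (green squares). Sds alone among the members passed the test in the deposited values, the green intervals of all 10 members include 0, and both intervals of Oat, Slc1a2, Glul and Rhbg lie below 0.

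The members shifted together in some mice and apart in others. Every member was below its group mean in AdVEGFA mouse 3 on the median-ratio scale (log2 -0.03 for Otc to -0.63 for Ass1). Every member was above it in AdCMV mouse 1 (0.07 for Ass1 to 0.39 for Gls2). After median-ratio scaling, AdVEGFA mouse 5 had the highest level of its group for 6 members and the lowest for none, whereas AdVEGFA mouse 3 had the lowest for 6. In AdCMV, mouse 4 was highest for 6 members and mouse 3 lowest for 5. These ranks turned with the scale: in the deposited values AdCMV mouse 4 was highest for 0 members and lowest for 4, AdCMV mouse 3 was highest for 3 and lowest for 1, and AdVEGFA mouse 4 was highest for 6. AdCMV mouse 4 had the highest Mup share of its group, at 50.5% of reads, and mouse 3 the lowest, at 18%. On the median-ratio scale AdVEGFA mouse 4 was mixed, highest for 3 members and lowest for 2: relative to its group's mean it was 1.13 higher on the log2 scale for Asl and 0.73 higher for Arg1, but 0.79 lower for Otc and 0.57 lower for Cps1.

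**Figure D3:**
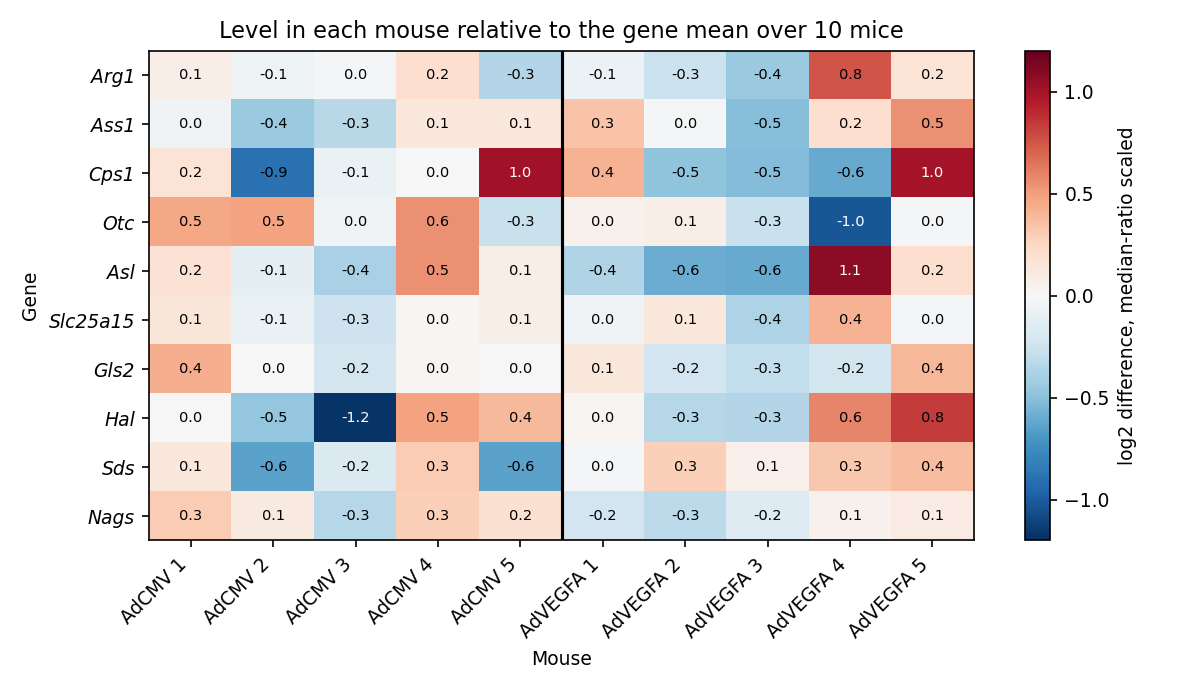
Log2 level of each enzyme (rows) in each mouse (columns) after median-ratio scaling, relative to the mean of that gene over the 10 mice, with red for higher and blue for lower. AdVEGFA mouse 4 combines high Asl and Arg1 with low Otc and Cps1, and mouse 5 of both groups has the highest Cps1.

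By Pearson correlation of log2 values after median-ratio scaling (10 mice, all genes tested, both groups together), the 5 closest were Snora52 (r = 0.973), a small nucleolar RNA, Lrp1 (0.973), an endocytic receptor with a transcript of 14800 bases, the pseudogene Gm5424 (0.972), whose reads cannot be cleanly told from those of Ass1, Rmrp (0.97), the RNA of a ribonuclease complex, and Cyp2d11 (0.965). All 5 were highest in mouse 5 of each group and lowest among AdCMV mice in mouse 2, as Cps1 was. Rmrp ran from 876.6 to 5069 RPKM in AdCMV and from 1932 to 5109 RPKM in AdVEGFA. Among the members, Ass1 was closest to Cps1 (r = 0.676), followed by Gls2 (0.606) and Hal (0.486), whereas Arg1 (-0.12), Slc25a15 (0.0137) and Otc (0.0381) were near 0. These correlations share libraries and describe 10 points only. The genes most like Sds were Xlr3a (r = 0.903), Gm5544 (0.894), Mblac1 (0.887), Pde8b (0.87) and Ddx54 (0.862), of which only Ddx54 was above 5 RPKM on average.

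Glul and its pericentral neighbours gave the contrast to the members. Glul, glutamine synthetase, was at 224.5 ± 29.2 RPKM in AdCMV and 49.2 ± 13.5 RPKM in AdVEGFA, with no overlap, and fell by 2.23 on the log2 scale (SE 0.23, adjusted p = 1.92e-06, limma). Rhbg, an ammonium transporter, fell by 2.39 (SE 0.33, adjusted p = 4.08e-05, limma) and Slc1a2, a glutamate transporter, by 2.02 (SE 0.28, adjusted p = 5.49e-05, limma). Oat, ornithine aminotransferase, which draws ornithine away from the cycle, went from 113.3 ± 13.8 to 55.4 ± 17.7 RPKM and fell by 1.08 (SE 0.22, adjusted p = 0.00164, limma). Of the 14 pericentral genes 7 fell in the deposited values and 10 after median-ratio scaling, and 0 rose on either scale, at an unadjusted p under 0.05 (limma) or with voom. Their median log2 fold change was -1.03 and -1.43 on the 2 scales, beside 0.38 and -0.02 for the members.

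Ratios of 2 genes within a library do not depend on scaling between libraries, and 6 such ratios were compared with an exact two-sided permutation test of 5 against 5 mice, which cannot go below p = 0.00794. The ratio of Cps1 to Glul had a median of 0.43 in AdCMV, with mice from 0.202 to 0.921, and of 1.93 in AdVEGFA, with mice from 1.67 to 8.16. No mouse of 1 group reached the other. The mean log2 ratio was higher by 2.55 in AdVEGFA (5.86-fold, SE 0.55 in log2 units, exact permutation p = 0.00794, adjusted over the 6 ratios p = 0.0476). Without AdVEGFA mouse 5 the difference was 2.14 and no longer passed (exact permutation p = 0.0159, adjusted p = 0.0952). Glul alone fell by 2.23 and Cps1 differed by 0.32, which did not pass, so that the ratio mostly restates the fall of Glul. The members and lists were chosen with earlier results of these data known, so that this test is no separate evidence.

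The ratio of Otc to Oat, the step that uses ornithine in the cycle against the step that diverts it, had a median of 1.11 in AdCMV and 2.54 in AdVEGFA. AdVEGFA mice 1, 2, 3 and 5 were above every AdCMV mouse, and mouse 4, at 0.827, was below them all. The log2 difference was 1.01 (SE 0.37, exact permutation p = 0.0476, adjusted p = 0.111) and did not pass. It passed only without AdVEGFA mouse 4, at 1.35 with an adjusted p of 0.0238 (exact permutation test). Leaving out any other mouse gave adjusted p-values from 0.0952 to 0.238 (exact permutation test). Oat alone fell by 1.08 and Otc differed by -0.07, so that the ratio mostly restates the fall of Oat.

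Like Otc to Oat, the other ratios given here did not pass with all mice. Arg1 to Arg2 differed by 0.20 (SE 0.51, exact permutation p = 0.69, adjusted p = 0.802). Sds to Hal differed by 0.10 (SE 0.39, exact permutation p = 0.802, adjusted p = 0.802). Cps1 to Alb, albumin being the main secreted protein of hepatocytes, differed by -0.82 (SE 0.39, exact permutation p = 0.0556, adjusted p = 0.111), with 3 AdVEGFA mice below every AdCMV mouse. Alb itself was at 16667 ± 1841 RPKM in AdVEGFA and 7716 ± 2056 RPKM in AdCMV (log2 fold change 1.14, SE 0.28, adjusted p = 0.0077, limma), and was higher by 0.74 after median-ratio scaling, where it did not pass (adjusted p = 0.17).

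**Figure D4:**
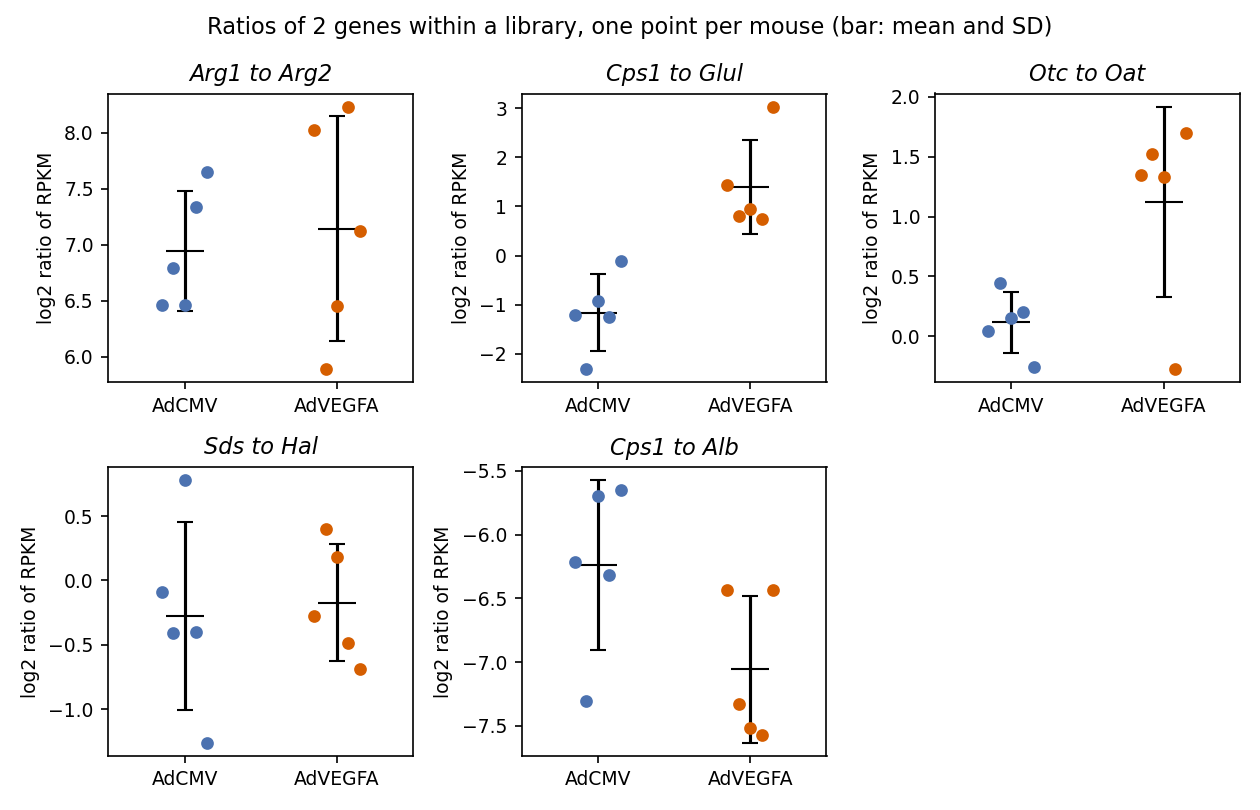
Log2 ratio of the RPKM of 2 genes in each library, for 5 pairs, with AdCMV mice in blue, AdVEGFA mice in orange, and mean and SD as bars. The groups are apart for Cps1 to Glul, 4 of 5 AdVEGFA mice lie above AdCMV for Otc to Oat, and the other 3 pairs overlap.

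The genes around the cycle were read from 5 lists of amino acid metabolism and hepatocyte zonation. For these lists and the regulators below, the shares over all genes tested are the background. In the deposited values 21.9% of all genes passed higher and 2.23% lower, and after median-ratio scaling 12.7% and 10.3%. Whether the count of a list differs from these shares was not tested. The 15 nitrogen partners tested include the transaminases and amino acid carriers that supply aspartate and glutamine. Of these only Slc38a3, a glutamine transporter of hepatocytes, rose in the deposited values (log2 fold change 0.73, SE 0.20, adjusted p = 0.0139, limma). Slc38a3 no longer passed after median-ratio scaling (0.33, adjusted p = 0.273, limma). After median-ratio scaling 2 of the 15 fell, Got2 (-0.62) and Aqp9 (-0.40), and 0 rose, also at an unadjusted p under 0.05 (limma). Glud1, glutamate dehydrogenase, was at 321.9 ± 46.0 RPKM in AdVEGFA and 295.1 ± 68.5 RPKM in AdCMV and passed on neither scale.

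In histidine, serine, threonine and glycine breakdown, 1 of 13 genes rose in the deposited values, Agxt (log2 fold change 0.88, adjusted p = 0.019, limma), an aminotransferase that removes glyoxylate. Agxt no longer passed after median-ratio scaling (0.48, adjusted p = 0.332, limma). After median-ratio scaling 4 of the 13 fell: Shmt1 (-0.80) and Shmt2 (-0.58), which interconvert serine and glycine, Gldc (-0.78) of the glycine cleavage system, and Glyctk (-0.70). The steps after Hal in histidine breakdown, Uroc1, Amdhd1 and Ftcd, had log2 differences of -0.26, 0.04 and 0.06 on that scale and did not pass. In the deposited values the differences were 0.14, 0.44 and 0.46, which did not pass either (adjusted p = 0.567, 0.0745 and 0.0751, limma). There the groups did not overlap for Amdhd1 and Ftcd, with AdVEGFA above, against 14.3% of all genes tested.

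Of 14 genes of aromatic amino acid breakdown, 1 fell in the deposited values, Tdo2 (log2 fold change -0.67, adjusted p = 0.0394, limma), the first enzyme of tryptophan breakdown, and 2 after median-ratio scaling, Tdo2 (-1.08) and Kmo (-0.84). Of 21 genes of sulfur, lysine, proline and branched-chain amino acid breakdown, Cbs rose (0.98, adjusted p = 0.00635, limma) and Csad fell (-1.04, adjusted p = 0.0133, limma) in the deposited values. Cbs no longer passed after median-ratio scaling (0.58, adjusted p = 0.14, limma). After median-ratio scaling 9 of the 21 fell. Among them were Csad (-1.44), which makes the taurine precursor hypotaurine, and Prodh (-1.0), which oxidizes proline. Another was Bckdha (-0.82), a subunit of the branched-chain keto acid dehydrogenase.

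Of 12 other periportal genes, 2 rose in the deposited values, Hsd17b6 (log2 fold change 0.83, adjusted p = 0.027, limma) and Pck1 (0.79, adjusted p = 0.0472, limma), the latter a key enzyme of glucose synthesis. Both no longer passed after median-ratio scaling, at 0.42 (adjusted p = 0.148, limma) and 0.39 (adjusted p = 0.484, limma). After median-ratio scaling 3 of the 12 fell, among them Etnppl (-0.82) and Apof (-0.60). The median log2 fold change on that scale was -0.02 for the members, -0.22 for the nitrogen partners, -0.36 for the histidine to glycine list, -0.38 for the aromatic list, -0.50 for the sulfur to branched-chain list and -0.43 for the other periportal genes, beside -0.0044 over every gene tested. The difference between the members and these lists was not tested.

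**Figure D5:**
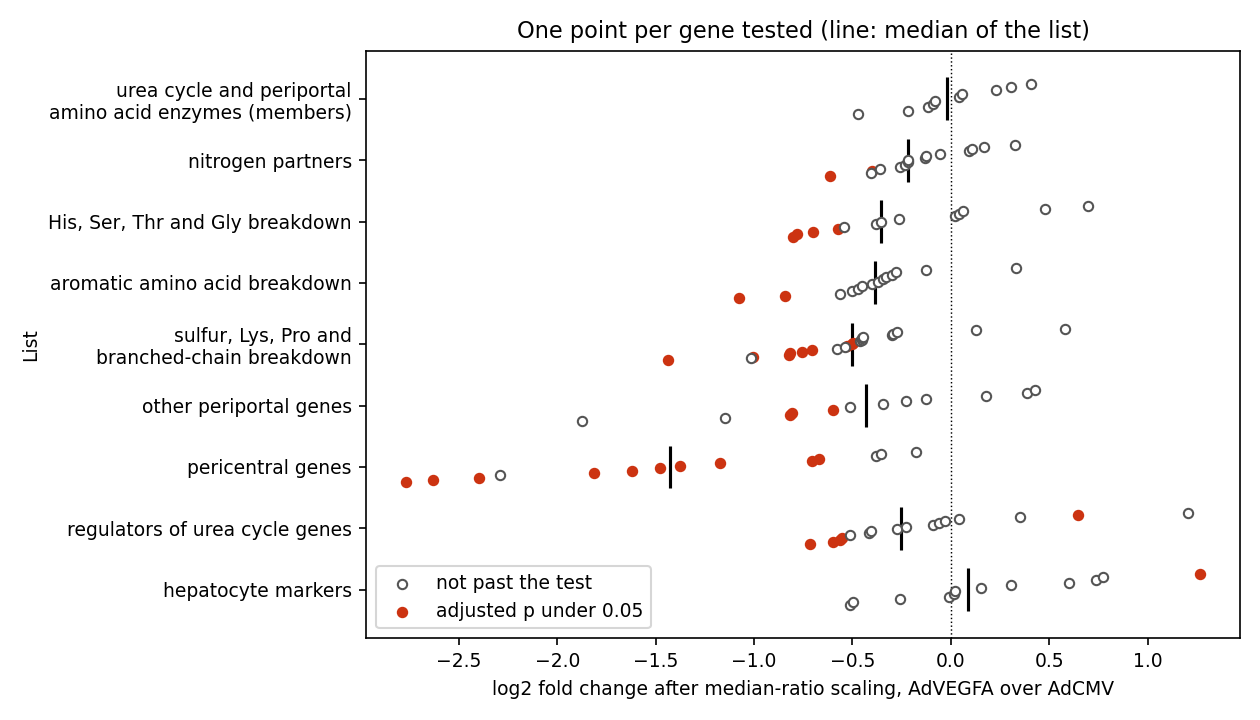
Log2 fold change after median-ratio scaling, AdVEGFA over AdCMV, of each gene tested in 9 lists (rows), with genes past the test as filled red points, others open, and the median of each list as a line. No member is filled, the pericentral list lies farthest to the left with a median of -1.43, and the breakdown lists lie between it and the members.

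Among 16 regulators of urea cycle genes, 3 rose in the deposited values: Fgf21 (log2 fold change 1.58, SE 0.53, adjusted p = 0.0379, limma), a fasting hormone of liver, Nfya (1.03, SE 0.27, adjusted p = 0.012, limma), a subunit of the CCAAT-binding factor, and Creb1 (0.74, SE 0.25, adjusted p = 0.0394, limma), a cyclic AMP response factor. After median-ratio scaling Fgf21 (1.21, adjusted p = 0.126, limma) and Creb1 (0.35, adjusted p = 0.165, limma) no longer passed, and Nfya rose by 0.65 (adjusted p = 0.0241, limma). On that scale 4 fell, among them Sirt5 (-0.71), which acts on Cps1 protein, Hnf4a (-0.56) and Cebpb (-0.55). Hnf4a, a nuclear receptor central to hepatocyte identity, was at 53.8 ± 5.6 RPKM in AdVEGFA and 62.7 ± 21.3 RPKM in AdCMV in the deposited values, where it did not pass (log2 fold change -0.16, adjusted p = 0.603, limma). Gcgr, the glucagon receptor, was at 65.0 ± 7.01 RPKM in AdVEGFA and 52.2 ± 4.06 RPKM in AdCMV and passed on neither scale.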

How the data were processed

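Whole-liver RNA of 10 mice was measured by RNA-seq. Per the labels and methods, RNA was depleted of ribosomal RNA and reads were mapped with TopHat, and the submitters' processing notes also name HOMER and the build mm9. The authors deposited RPKM values, 1 table for all samples. Columns with the authors' own fold changes and adjusted p-values were not used. Of 24016 rows, 5 without a symbol were left out (at most 0.00534% of reads). Reads were recovered from the steps of the values (tolerance 0.1 read, 99.99% or more whole in each library) to give depth and counting error.

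Log2(RPKM + 0.1) was tested for the 13933 genes whose group mean exceeded 0.5 RPKM in either group, with limma 3.58.1 (R 4.3.3, trend, two-sided, Benjamini-Hochberg), without covariates. Ratios were tested with scipy 1.17.1 and adjusted over 6 ratios, of which 1 is not reported here. The sources name 5 biological replicates a group, taken here as separate mice. The members and lists were chosen with earlier results of these data known. Named genes were the 10 members, their paralogs and zonal counterparts, up to 4 genes of each list with the largest change among those past the test, and the 5 genes most like Cps1 and Sds. Cebpa, Glud1, Gcgr, Hnf4a and the genes after Hal, and the genes named from the lists after median-ratio scaling, were added after their values were seen. Alternatives were 3 other scalings beside the median ratio, other pseudocounts and filters, array weights, voom on recovered reads, a replicate block and leaving out each mouse. No pair of libraries of the same group agreed within sampling noise. The test was checked on simulated data, where most changes of 1 or less in log2 units did not pass.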

Additional observations from a re-analysis of the deposited data

Results flagged for a closer look

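Each member's highest and lowest mouse was compared with the rest of its group in 20 groups of 5 mice, and 3 stood apart by Dixon's criterion (gap over range above 0.71), where chance gives about 1 in 20 groups. Arg1 in AdCMV mouse 3 was at 565.6 RPKM (gap over range 0.849), and Arg1 in AdVEGFA mouse 4 was at 948.8 RPKM (0.814). Asl in AdVEGFA mouse 4 was at 170.2 RPKM (0.787). The same mouse had the lowest Otc of the 10 mice. None of the 3 passed the criterion after median-ratio scaling: AdCMV mouse 3 was then in the middle of its group for Arg1, and AdVEGFA mouse 4 was still highest for Arg1 (0.594) and Asl (0.662). Mup took 18% of reads in AdCMV mouse 3, less than in any other AdCMV mouse. Which property of these livers or libraries goes with these values was not tested.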

How the results depend on the processing

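The number of members that passed higher was 1 in the deposited values. It was 0 after median-ratio, upper quartile and hepatocyte marker scaling, and with library totals lowered by the Mup share of reads summed over transcripts. It was 3 with voom, 4 with array weights, and 3 with a replicate block, which added Ass1 and Hal. When 1 mouse was left out it was 1 to 3 (3 without AdCMV mouse 5, 2 without AdCMV mouse 3 or AdVEGFA mouse 3). With the replicate block or any 1 mouse left out after median-ratio scaling, chosen after seeing the data, it stayed at 0. Sds passed in 17 of 21 alternatives, Ass1 in 6, Hal in 4, Slc25a15 in 1 and the other 6 members in 0, while Glul, Oat, Rhbg and Slc1a2 passed in all 21. Over all genes, calls higher and lower were 1808 and 214 as deposited (89.4% higher), 1082 and 438 by median ratio (71.2%), 1169 and 366 by upper quartile (76.2%), 1059 and 446 without Mup (70.4%), 827 and 727 by hepatocyte markers (53.2%), and 954 higher with a pseudocount of 1. When 1 mouse was left out, calls higher ran from 1425 to 2357.

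Log2 fold changes turned below 0 under hepatocyte marker, Mup-free, median-ratio and upper quartile scaling for Nags (-0.43, -0.23, -0.22, -0.14), Cps1 (-0.2964, -0.0924, -0.0807, -0.0047), Asl (-0.33, -0.13, -0.11, -0.0382), Gls2 (-0.31, -0.10, -0.0914, -0.0155) and Arg2 (-0.34, -0.14, -0.13, -0.0568). Hepatocyte marker scaling alone turned Arg1 (-0.16) and Slc25a15 (-0.18). Otc turned positive with array weights (0.0159) and without AdVEGFA mouse 4 (0.11), and Asl turned negative without that mouse (-0.0073, the lowest of a range up to 0.4156 when 1 mouse was left out). Leaving out mice gave log2 ratios from -0.0697 to 0.5152 for Arg1 to Arg2 and from -0.1437 to 0.3662 for Sds to Hal. Cps1 to Glul ran from 2.1416 to 2.8115 and Otc to Oat from 0.8626 to 1.3547. As paired by the replicate block, Cps1 to Glul kept 2.55 with an adjusted p of 0.188 (exact sign changes of 5 pairs, smallest p 0.0625). Same-numbered mice deviated together only weakly (correlations of 0.00937 to 0.294), and mice 2 and 3 did not match best with their own number. Beyond the scaling shift the causes were not tested.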
